A study of Mus musculus with 3 samples.

Results

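Glutamate, GABA and glycine receptors are the proteins through which most fast signals pass between neurons of the brain and spinal cord. AMPA, kainate and NMDA receptors are cation channels opened by glutamate, and GABA-A and glycine receptors are chloride channels assembled from related subunits. Metabotropic glutamate receptors and the GABA-B receptor act through G proteins, and several of these genes are also active outside neurons or before synapses form. The 52 receptor genes described here are those whose symbol on the array is that of an AMPA (Gria), delta (Grid), kainate (Grik), NMDA (Grin), metabotropic glutamate (Grm), GABA-A (Gabr), GABA-B (Gabbr) or glycine receptor (Glra, Glrb) gene, out of 30120 gene names on the array. They were read by 82 probes of 60 bases, out of 39429.

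The study compared mouse embryoid bodies, floating aggregates of differentiating embryonic stem cells, of 2 genotypes after 10 days in suspension without the self-renewal cytokine LIF. The mutant, Dido3deltaCT+HADidoNT, makes a Dido3 protein without its C-terminal end and overexpresses the N-terminal region of Dido that carries the PHD finger, and the control was wild type. Both genotypes had 3 biological replicates, and each of 3 two-colour arrays held 1 mutant and 1 wild-type RNA. The mutant was labelled with Cy3 on arrays 1 and 3 and with Cy5 on array 2. The sources used here name neither the promoter of the overexpressed region nor the number of cell clones. Each ratio below is mutant over wild type on the log2 scale, above 0 where the mutant was higher, with its SD over 3 arrays. Called genes passed an adjusted p of 0.05 in limma with Benjamini-Hochberg adjustment over all 19667 genes with a measurable probe.

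In the mutant channel 66.5% to 74.8% of spots were well above background and in the wild-type channel 64.8% to 76.0%, and no spot was saturated. Over all measured genes 249 were called higher and 76 lower (1.65% in either direction). The Dido1 probes on chromosome 2 read -3.60 ± 0.17, -0.54 ± 0.93, 2.35 ± 0.40 and 3.03 ± 0.34, so probes of the altered gene went both ways. The Y-linked genes Eif2s3y and Ddx3y were well above background on 3 arrays in wild type and on 0 in the mutant, so the genotypes also differ in Y-linked transcripts. Markers of several lineages were present in the embryoid bodies, with 10 of 10 visceral endoderm, 9 of 10 cardiac and mesenchyme, 16 of 16 neuron and 12 of 12 neural progenitor markers measurable. An array reads a whole embryoid body, in which fewer cells of a type and less RNA per cell cannot be told apart.

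The sequences of probes behind the highest receptor ratios are shown first, because 1 of them carries a purine repeat that other probes of the array share. Each line gives 30 of the 60 bases of a probe, 5′ to 3′ as in the deposited scanner files, with capitals on the longest run of A and G in the probe where it lies in the stretch (all coordinates are mm9).
Gabra2, probe at chr5:71352275-71352334, minus strand: aaaatttAGAAGAAGAAGGAGAAGAAGAAG
Gabra2, probe at chr5:71352306-71352365, minus strand: ttcagctcacttcaatcattggaaactacc
Gria3, probe at chrX:39031099-39031158, plus strand: gtctttAGAAAAGAAAGGAAGAGGtctcgt
Gria3, probe at chrX:39007367-39007426, plus strand: aagttggtGGAAAtctggattccaaaggct
Grin3b, probe at chr10:79439842-79439901, plus strand: agagctGAGGAActacacggccacactgtc
Grik4, probe at chr9:42328570-42328629, minus strand: tcatcagttgaattccccctAGGAAGGGGc
The first Gabra2 probe ends in a run of 23 purines and contains the motif GAAGAAGAA. The other probes shown lack this motif, and the Gabbr2 probe described below also holds it.

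Of the 52 receptor genes, 26 had a probe well above background on all 3 arrays in at least 1 genotype, and the other 26 did not. This filter sets which genes could be tested. Measurable genes were found among the ionotropic glutamate receptors in 9 of 18, the metabotropic receptors in 5 of 8, the GABA-A subunits in 9 of 19, the GABA-B subunits in 2 of 2 and the glycine receptors in 1 of 5. For 9 genes no probe was well above background on any array in either genotype, among them the AMPA subunit Gria1, the metabotropic receptor Grm3, the GABA-A subunits Gabra6 and Gabrq and all 4 glycine receptor alpha genes, Glra1, Glra2, Glra3 and Glra4. The other 17 reached that level on some arrays, among them Gria2, Grik1, Grid1, Grin2a, Grin2b, Grin2d, Grin3a, Grm6, Grm7, Gabra4, Gabra5, Gabrb1, Gabrg1, Gabrd and Gabrr3. Grin2b, Grik1 and Grid1 did so on 2 arrays in wild type and on 0 in the mutant, but with signals near background. The intensities of these probes were 73.1 to 101 in wild type and 71.7 to 85.3 in the mutant. The lowest signals counted as well above background were 50.1 to 82.7. On array 2 their ratios were 0.16, 0.10 and -0.01. No share of all genes with such a pattern is given here. Within a family the measured set was often partial: of the AMPA subunit genes, Gria3 and Gria4 were measurable and Gria1 and Gria2 were not.

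**Figure D1:**
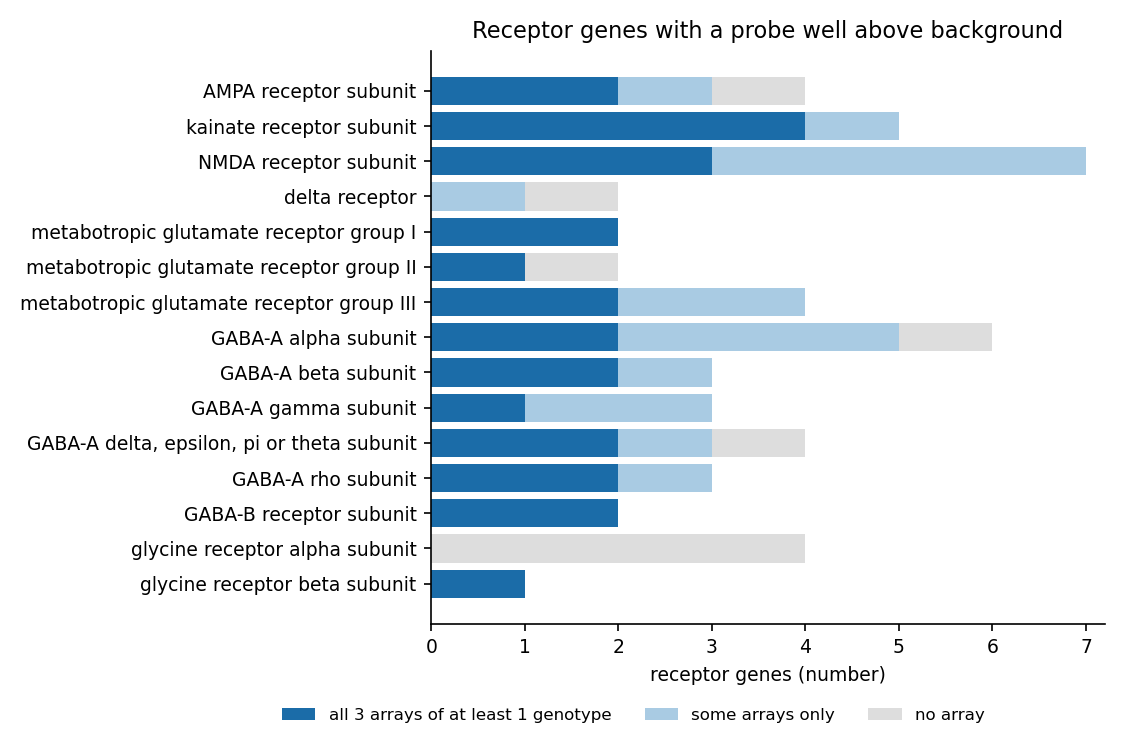
Horizontal bars give the number of receptor genes in each subunit class, split by whether a probe was well above background on all 3 arrays of at least 1 genotype, on some arrays only, or on no array. All 4 glycine receptor alpha genes lie in the last class, while 4 of 5 kainate receptor genes lie in the first.

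Many GABA-A genes sit next to each other on the chromosomes. Only 9 of 19 GABA-A genes were measurable, so groups with some members measurable and others not are no result in themselves. In the group at chr5:71143181-72528145 of Gabrg1, Gabra2, Gabra4 and Gabrb1 1 of 4 was, through the Gabra2 probe with the purine run. On chromosome 7 Gabrg3 was measurable and Gabra5 was not, and the X-linked group had Gabre and Gabra3 but not Gabrq. The neighbouring rho genes Gabrr1 and Gabrr2 on chromosome 4 were both measurable.

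Among the 26 measurable receptor genes, 1 was called higher in the mutant, the NMDA subunit gene Grin3b, and 0 were called lower. Grin3b entered the test through the mutant alone. Among the 19 receptor genes above background in both genotypes 0 were called in limma, against 321 of 17501 genes under that filter. Of the 19, 6 had an unadjusted p under 0.05. No share over all genes is given here for that filter, so whether this is an excess cannot be told. With the filter of at least 1 genotype, 1.27% of all genes were called higher and 0.386% lower in limma. The 1 of 26 is close to what all genes gave. At an unadjusted p under 0.05, 8 of the 26 passed (30.8%), against 19.9% of all genes. Of the 8, Grin3b and Gabbr2 entered through the mutant alone. Without the motif probes, a setting chosen after the values were seen, 6 of 24 passed, again with no share over all genes to set beside it. The median ratio of the 26 was -0.17, against -0.01 for all genes, with array medians of -0.18, 0.13 and -0.38. Higher on all 3 arrays were 6 genes (23.1%, against 22.5% of all genes), among them Grin3b, Gabra2, Gabbr2, Gria3 and Grik4. At least 2-fold higher on all 3 arrays were Grin3b and Gabra2, 2 of 26 (7.69%, against 3.1% of all genes), and 0 were at least 2-fold lower, against 1.08%. Lower on all 3 arrays were 4 (15.4%, against 19.1%), among them Gabra3, Gabbr1 and Grm8. Grm8 entered the test through wild type alone, the genotype in which it was higher.

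**Figure D2:**
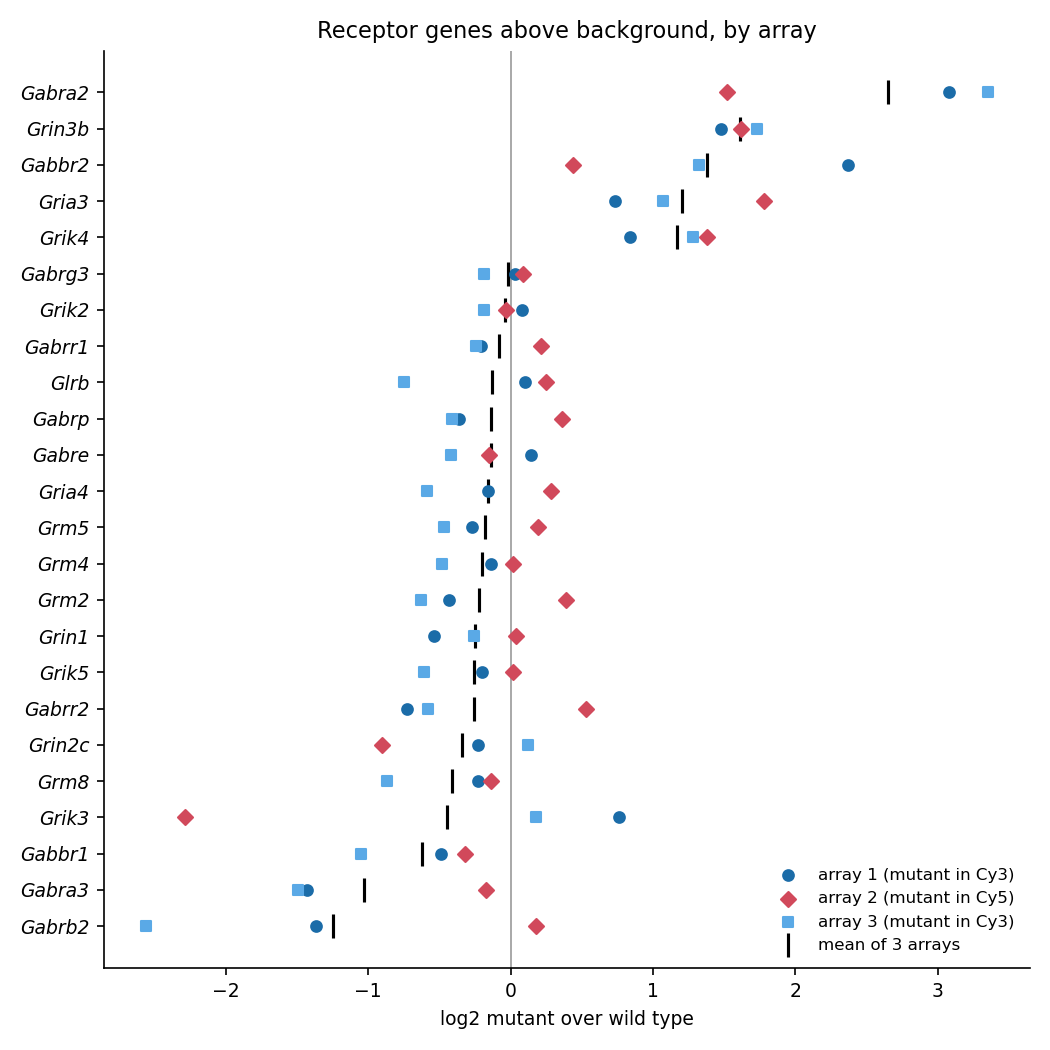
Each row is 1 of 24 measurable receptor genes, the horizontal axis is the log2 ratio of mutant over wild type, symbols are the 3 arrays and the black bar is their mean. The 5 genes at the top lie above 0 on every array, Gabrb2 and Grik3 are spread widest among the rest, and for many genes in the middle array 2 lies on the other side of 0 from arrays 1 and 3.

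Of the ionotropic glutamate receptor genes, Grik4 and Gria3 lay 2.24-fold and 2.29-fold above wild type on average, Grin3b was higher over a wild-type signal near background, and the other 6 measurable ones lay between -0.45 and -0.04. Grin3b encodes an NMDA receptor subunit that binds glycine in place of glutamate. Its normalised spot intensity was 97.9, 109 and 105 in wild type and 273, 335 and 350 in the mutant on arrays 1, 2 and 3. The genotypes did not overlap and all 3 arrays gave nearly the same ratio. The ratio of 1.61 ± 0.12 (SE 0.18, adjusted p = 0.0435 in limma) was called higher. Grin3b was well above background on 3 arrays in the mutant and on 2 in wild type, so it passed the filter through the mutant alone, and its fold of 3.05 is over a wild-type signal near the lowest counted as above background. The call was lost without replicate 1 (adjusted p = 0.262), without replicate 3 (adjusted p = 0.182), with the local background not limited (1.13, adjusted p = 0.317), with no filter on dim probes (adjusted p = 0.0559) and with the values of the authors' deposited table (1.08, adjusted p = 0.0661). Where both genotypes had to be above background Grin3b was not tested. The call held in 11 of 16 alternatives that tested it, with adjusted p between 0.0139 and 0.317 in limma. This count is no measure of support, since some of the 11 could hardly change the call. Grin3b has 1 probe, without the motif, so averaging probes or leaving out motif probes kept its ratio at 1.61. A threshold of 0.1 only loosened the limit, and without replicate 2 dye and genotype are not separated.

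Grik4 encodes a kainate receptor subunit that forms channels only with other kainate subunits. Its intensity was 280, 156 and 261 in wild type and 499, 407 and 632 in the mutant. No mutant value fell within the wild-type range. The ratio of 1.17 ± 0.29 was not called (adjusted p = 0.0696 in limma).

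Gria3, an X-linked gene, encodes an AMPA receptor subunit and was read by 2 measurable probes. The brighter one had intensities of 184, 221 and 379 in wild type and 306, 762 and 798 in the mutant, with ratios of 0.73, 1.78 and 1.07. Here the genotypes overlapped, since the mutant of array 1 lay below the wild type of array 3, but on each array the mutant was higher. The second probe, without the long purine run, had 96.8, 126 and 113 in wild type and 196, 314 and 283 in the mutant, which do not overlap. Both probes gave nearly the same mean, 1.20 ± 0.54 and 1.22 ± 0.18, and neither was called (adjusted p = 0.105 for the gene, and adjusted p = 0.0526 for the second probe with each probe tested singly in limma). The median ratio of 808 chromosome X genes was -0.01.

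The remaining ionotropic genes gave no call in this fit. Grin1, which encodes the subunit that all NMDA receptors need, was at -0.25 ± 0.29 and Grin2c at -0.34 ± 0.52. The AMPA subunit gene Gria4 was at -0.16 ± 0.43, and the kainate subunit genes Grik5 and Grik2 were at -0.26 ± 0.32 and -0.04 ± 0.13. Grik3, another kainate subunit gene, differed most between arrays. Its intensity was 961, 2030 and 661 in wild type and 1630, 416 and 748 in the mutant, so the ratio was 0.76 and 0.18 on arrays 1 and 3 but -2.29 on array 2. The mean of -0.45 ± 1.62 therefore rests on array 2, and without that replicate it was 0.47. A second Grik3 probe was not well above background on any array.

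**Figure D3:**
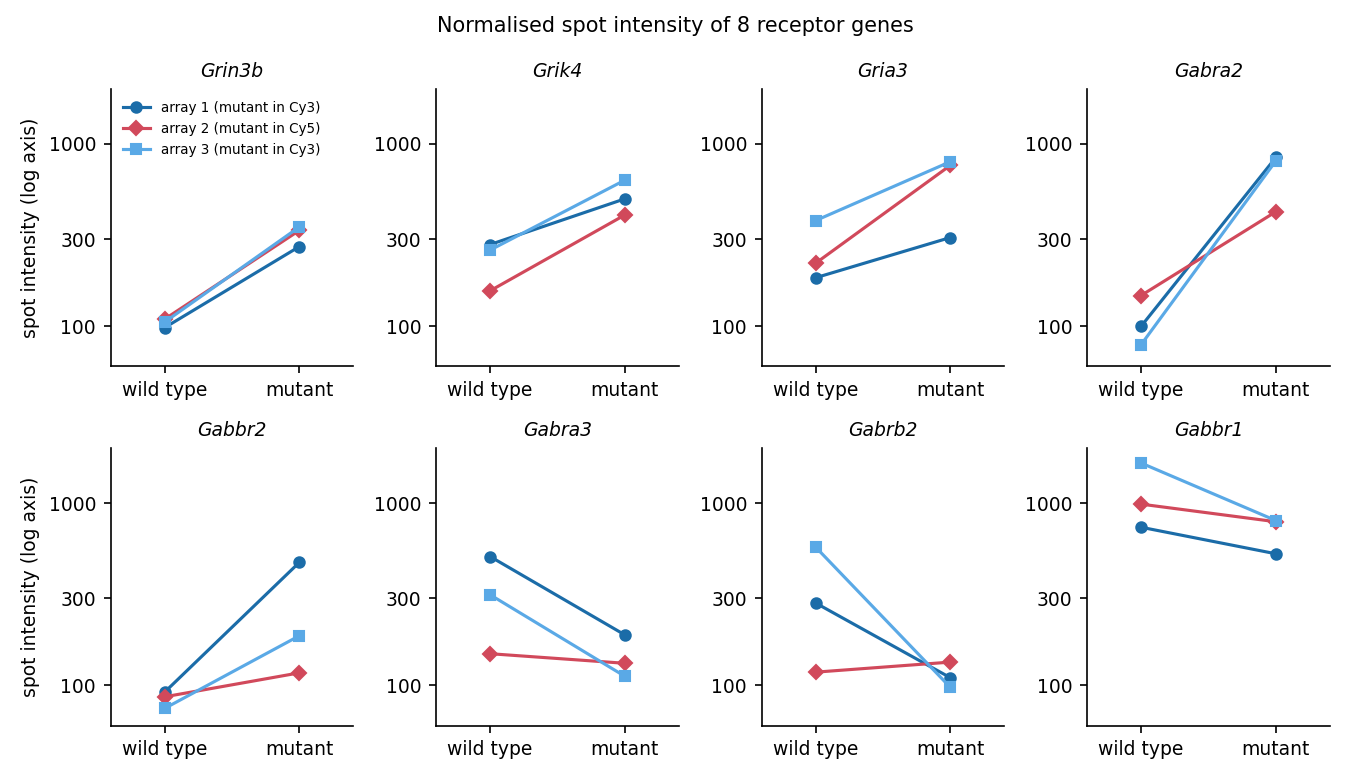
Each panel shows the normalised spot intensity of 1 gene's probe (vertical log axis) in wild type and mutant, with a line for each array. All lines rise for Grin3b, Grik4, Gria3, Gabra2 and Gabbr2 and all fall for Gabra3 and Gabbr1, while for Gabrb2 array 2 goes the other way from arrays 1 and 3.

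The 5 measurable metabotropic glutamate receptor genes gave no call. Grm5, a group I receptor that signals through phospholipase C, was at -0.18 ± 0.34. The group II gene Grm2 was at -0.22 ± 0.54. Of the group III genes, Grm4 was at -0.20 ± 0.26 and Grm8 at -0.41 ± 0.40. Grm8 had intensities of 93.4, 93.6 and 154 in wild type and 79.4, 85.1 and 84.4 in the mutant. These do not overlap, but they lie near the lowest signals counted as well above background, which were 50.1 to 82.7, and the adjusted p was 0.408 in limma. Non-overlapping intensities were found in 5 of the 26 receptor genes, Grin3b, Grik4, Gabra2, Gabbr2 and Grm8 (19.2%, against 21.6% of all genes). Of these 5, Grin3b and Gabbr2 passed the filter through the mutant alone and Grm8 through wild type alone.

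GABA-A receptor genes showed the largest ratios in both directions, but none was called. Gabra2 encodes an alpha subunit found early in the developing brain. The probe that stands for it had intensities of 99.5, 147 and 78.9 in wild type and 842, 424 and 806 in the mutant, with ratios of 3.08, 1.52 and 3.35. On all 3 arrays the mutant was far higher, and the mean of 2.65 ± 0.99 was not called (6.29-fold, adjusted p = 0.0572 in limma). The second Gabra2 probe shares 29 bases with the first and lacks the purine run. It was not well above background on any array, with intensities of 66.1 to 85.6 in wild type and 69.3 to 82.7 in the mutant.

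The ratios of other probes with the same motif are given beside those of the Gabra2 and Gabbr2 probes. Besides these 2, the motif GAAGAAGAA, searched in the probe as printed, was found in 132 measurable probes. Their median ratio was 2.14 and 96 of them (72.7%) were higher on all 3 arrays, against a median of -0.01 and 22.7% in the 25343 measurable probes that hold neither the motif nor its reverse complement. The 19 measurable probes with the reverse complement TTCTTCTTC had a median of -0.06. Where a motif probe also had a purine run of 20 or more bases, as the Gabra2 probe has, the median was 3.64 over 67 probes, with 92.5% higher on all 3 arrays. With a shorter run, as in the Gabbr2 probe, the median was 0.50 over 67 probes, with 53.7% higher on all 3 arrays and a lower quartile of -0.01. By array, the medians of all 134 motif probes were 2.55, 1.12 and 2.61, lower on array 2, as for the Gabra2 probe. In 29 genes a motif probe could be set beside other measurable probes of the same gene, and the medians were 0.75 and 0.04, with the motif probe higher in 22. The part of the repeat in the 2 receptor ratios was not tested.

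**Figure D4:**
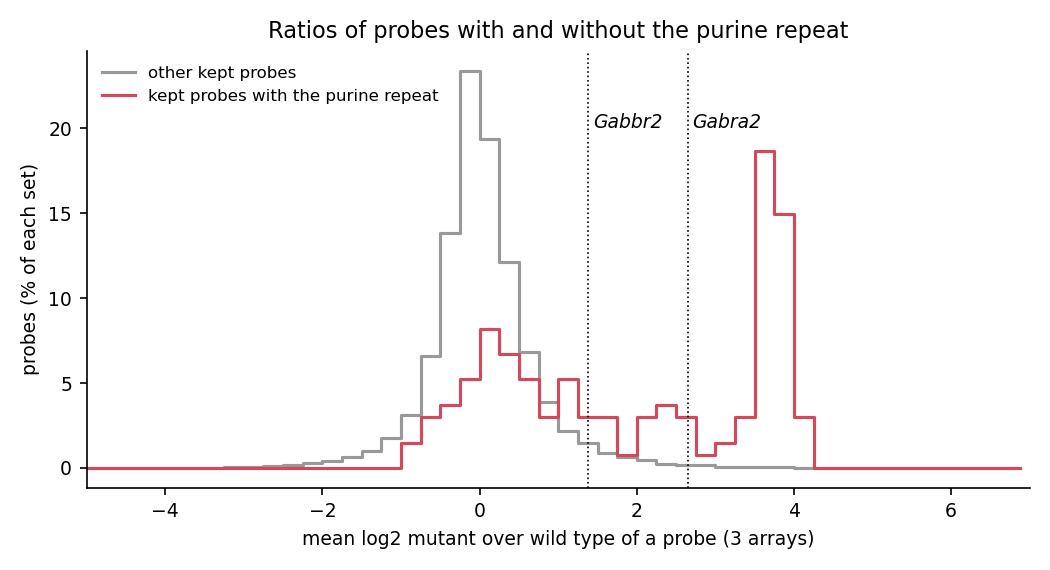
Step lines give the distribution of the mean log2 ratio of mutant over wild type (horizontal axis) as a percent of the probes in each set, for the 134 measurable probes with the motif GAAGAAGAA and for all other measurable probes. The motif probes form a separate peak between 3.5 and 4, the others centre on 0, and dotted lines mark the Gabra2 and Gabbr2 probes at 2.65 and 1.38.

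Of the other GABA-A subunit genes, Gabra3 and Gabrb2 had the lowest mean ratios. Gabra3, an X-linked alpha subunit gene, had intensities of 509, 149 and 314 in wild type and 189, 132 and 112 in the mutant, with ratios of -1.43, -0.17 and -1.49. The mutant was lower on each array, yet array 2 showed little difference, and the mean of -1.03 ± 0.74 was not called (adjusted p = 0.190 in limma). A second Gabra3 probe was not well above background on any array and read 0.18, -0.21 and 0.03. Gabrb2, a beta subunit gene, had 283, 118 and 574 in wild type and 110, 134 and 97.3 in the mutant. Arrays 1 and 3 gave -1.37 and -2.56 but array 2 gave 0.18, so the mean was -1.25 ± 1.37 (adjusted p = 0.303 in limma).

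The remaining GABA-A genes described here had mean ratios between -0.26 and -0.02. Gabrg3 was at -0.02 ± 0.14, Gabre at -0.14 ± 0.28 and Gabrp, whose subunit is known from epithelia of reproductive organs, at -0.14 ± 0.43. The rho subunit genes, best known from the retina, were at -0.26 ± 0.69 for Gabrr2 and -0.08 ± 0.25 for Gabrr1. Gabrr2 had ratios of -0.73, 0.53 and -0.58, which change sign with the dye of the mutant, so on every array the Cy5 channel was the brighter.

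The GABA-B receptor is a pair of proteins, of which the Gabbr1 product binds GABA and the Gabbr2 product couples to the G protein. Gabbr1 was read by 3 measurable probes. The brightest had 737, 987 and 1660 in wild type and 527, 790 and 802 in the mutant, a mean ratio of -0.62 ± 0.38 (adjusted p = 0.239 in limma), while the other probes were at -0.20 ± 0.20 and -0.22 ± 0.15. The Gabbr2 probe with the motif had 91.6, 86.4 and 74.6 in wild type, where it was well above background on 1 array, and 473, 117 and 187 in the mutant, a mean of 1.38 ± 0.97 (adjusted p = 0.165 in limma). Both other Gabbr2 probes were not well above background on any array and read -0.01 ± 0.18 and 0.06 ± 0.19. For glycine receptors only Glrb, whose beta subunit anchors the receptor to the scaffold protein gephyrin, was measurable, at 0.10, 0.25 and -0.75 with a mean of -0.13 ± 0.54.

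Array 2 differed from arrays 1 and 3 across these genes. In 11 of the 26 (42.3%) arrays 1 and 3 had one sign and array 2 the other, as in 38.4% of all genes. These were Gabrb2, Grik3, Grik5, Grin1, Gria4, Grm2, Grm4, Grm5, Gabrp, Gabrr1 and Gabrr2. Array 2 is the only one with the mutant in Cy5, so an effect of the dye and one of that replicate cannot be told apart. Across the 26 genes the Pearson correlation was 0.92 between arrays 1 and 3, 0.41 between 1 and 2 and 0.50 between 2 and 3, and across all measurable probes it was 0.80, 0.38 and 0.21. Genes that share an array and its normalisation are not independent points. With a dye effect as a term in the fit, 4 receptor genes were called higher, Grin3b at 1.61, Gabra2 at 2.37, Grik4 at 1.22 and Gria3 at 1.34, and 1 lower, Gabra3 at -0.82 (adjusted p of 0.0142, 0.0108, 0.0265, 0.0205 and 0.0367 in limma). In that fit 7.88% of all genes were called higher and 5.01% lower, and beside the spread shared over genes it rests on that between arrays 1 and 3 alone. Over all alternatives the adjusted p ran from 0.00771 to 0.314 for Gabra2, from 0.0265 to 0.347 for Grik4, from 0.0205 to 0.349 for Gria3 and from 0.0143 to 0.812 for Gabra3 in limma.

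**Figure D5:**
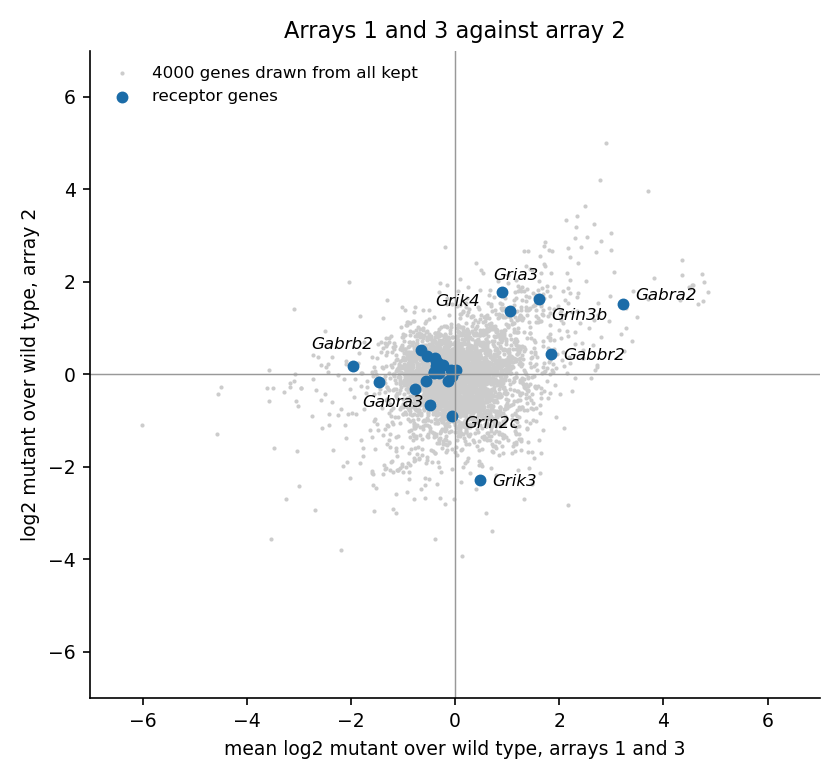
The horizontal axis is the mean log2 ratio of arrays 1 and 3, with the mutant in Cy3, and the vertical axis is the log2 ratio of array 2, with the mutant in Cy5. Grey points are 4000 genes drawn from all measurable ones and blue points are the 26 receptor genes. Grin3b, Grik4, Gria3 and Gabra2, the last read by a motif probe, are clearly above 0 on both axes. Gabbr2, also read by a motif probe, is above 0 on both, but less so on array 2. Gabrb2, Gabra3 and Grik3 lie below -1 on one axis but not on the other.

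Neural marker genes had median ratios below 0 on each array, nearest to 0 on array 2. Of all measurable genes 22.5% were higher and 19.1% lower on all 3 arrays, to set beside the counts of each list from here on. The median of 16 neuron markers was -1.19, with array medians of -1.09, -0.29 and -2.10, and 9 were lower and 3 higher on all arrays. For 12 neural progenitor markers the median was -2.10, with array medians of -3.49, -0.61 and -2.84, and 10 were lower on all arrays. No marker of either list was called: the smallest adjusted p in limma were 0.0550 for the neuronal gene Stmn2 at -1.76 ± 0.52, followed by Rbfox3 at -1.61 ± 0.69 and Stmn3 at -2.63 ± 1.49, and 0.0797 for the Notch ligand gene Dll1 at -1.91 ± 0.86, followed by Sox3 at -2.18 ± 1.14. The summed intensity of the neuron markers ran from 12500 to 47300 in wild type and from 17700 to 21900 in the mutant, and that of the progenitor markers from 28100 to 88600 and from 6730 to 24400. The summed intensities of the neuron markers overlapped between genotypes and those of the progenitor markers did not, and 16 of 16 neuron and 11 of 12 progenitor markers were well above background in both genotypes on all arrays. The part of these cell types in the receptor ratios was not tested. Of the glial markers 8 of 11 were measurable, with a median of -0.12, led by Sox10 at -0.78 ± 0.49, Olig2 at -1.45 ± 1.58 and Cspg4 at 0.41 ± 0.42, and 0 were called.

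Genes that make, move and clear the transmitters gave no call. Of 12 genes of glutamate transport and metabolism 9 were measurable, with a median of -0.14 and 3 lower and 1 higher on all arrays. Slc17a6, which loads glutamate into synaptic vesicles, read -2.16, -0.38 and -4.41, a mean of -2.32 ± 2.02 (adjusted p = 0.203 in limma). The glutamine synthetase gene Glul was at 0.76 ± 0.88. Of 13 genes of GABA and glycine synthesis, transport and the chloride gradient 11 were measurable, with a median of -0.14 and 3 higher and 1 lower on all arrays. Slc12a2, the chloride importer that makes GABA depolarising in immature neurons, was at 0.93 ± 0.25 (adjusted p = 0.0974 in limma), and the GABA-degrading enzymes Aldh5a1 and Abat at 0.79 ± 0.49 and 1.09 ± 0.92.

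Partner proteins of the receptors were mixed and none was called. Of 37 partners of glutamate receptors 24 were measurable, with a median of -0.13, 5 of them higher and 4 lower on all arrays. Shisa6, an auxiliary protein of AMPA receptors, had 1.30, 1.28 and 1.18, a mean of 1.25 ± 0.07 (adjusted p = 0.0530 in limma), and the AMPA receptor scaffold gene Grip1 was at 2.01 ± 0.62 (adjusted p = 0.0532 in limma). Cacng7, an auxiliary AMPA receptor subunit gene, was lower on all arrays, at -2.09, -1.23 and -1.18, a mean of -1.50 ± 0.51 (adjusted p = 0.0677 in limma). All 16 partners of GABA and glycine receptors were measurable, with a median of -0.12, 3 higher and 4 lower on all arrays. The GABA-B auxiliary genes Kctd12b and Kctd12 were at 0.98 ± 0.39 and -0.74 ± 0.32, and the trafficking protein gene Hap1 at -1.93 ± 1.41.

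Nicotinic acetylcholine receptor subunits, which belong to the same channel superfamily as GABA-A and glycine receptors, were measured beside them. Of 18 nicotinic and serotonin-gated channel genes 10 were measurable, 0 were called, and the median was -0.44, with 5 lower and 2 higher on all arrays. Chrnb4 read -1.37, -0.76 and -1.31, a mean of -1.15 ± 0.34 (adjusted p = 0.0787 in limma). Chrna4 was at -1.54 ± 0.70 and Chrna7 at -0.51 ± 0.09. Array 2 had the same sign as the other arrays in all 3 of these genes. They were named for the smallest p of their list, which favours the same sign on every array.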

How the data were processed

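Each deposited scanner file gives the intensity of every spot and of its surroundings, and a background-corrected, dye-normalized log10 ratio of red over green, written by Agilent Feature Extraction 10.7.3.1 with mm9 probe positions, per the file headers. A second deposited table has log2 ratios, for which limma (no version) is the tool in the submitters' processing notes. Set against scanner ratios turned as mutant over wild type, over 24601 bright spots, its columns had correlations of 0.951, 0.941 and 0.945 and medians of -0.01, 0.02 and -0.01, so its direction is mutant over wild type; its centring and background step stay unknown. Spots count as well above background by the scanner files' own flags.

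With R 4.3.3 and limma 3.58.1, local background was limited to 100 units, since 25 spots of array 2 reached up to 75739 (at most 60 on other arrays), then normexp (offset 50) and loess within arrays were applied. Control and outlier spots were left out. A probe counted as measurable if one of the genotypes was well above background on every array (25496 probes), and the brightest stood for its gene. The 2-sided test of the mean ratio was limma's (lmFit, then eBayes). Channel intensities are after loess and Aquantile scaling. All 3 arrays shared 1 slide. In simulated data of 19667 genes, errors were independent and had the spread that limma's eBayes estimated for each gene. There a log2 change of 1 was called in 9 of 100 genes and one of 2 in 90 of 100, with all other genes left unchanged. Genes that share a real array are not independent, and the share of them that changed is unknown, which moves the adjusted p. These rates may therefore not apply to them.

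Members, lists and the background limit were chosen with earlier results of these data known. The rule names every measurable receptor gene and, of every other list, the 3 genes with the smallest p and any called. Some genes and 1 probe sequence are not reported here, but counts and medians include them. A planned placement of probes in coding sequence was not made, as no protein sequences were used here.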

Additional observations from a re-analysis of the deposited data

How the results depend on the processing

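The number of receptor genes called higher, 1, was 0 with the local background not limited, with no filter on dim probes, with probes above background in both genotypes, where Grin3b is not tested, and in the authors' deposited log2 ratios; it was 2 with a normexp offset of 16 or an intensity trend, 3 with the scanner log ratio or a threshold of 0.1, and 4 with a dye term. The number called lower, 0, was 1 with a dye term. Leaving out 1 replicate gave 0 to 5 called higher, 0 to 2 called lower, and 5 to 14 lower on all remaining arrays. The higher counts came without replicate 2, where dye and genotype are not separated. With fewer arrays fewer signs have to match, and no share of all genes lower on the remaining arrays is given here. Counts over all genes, 325 here, were 0 with the background not limited, without replicate 1, without replicate 3, with no filter and in the authors' values, and 5082 without replicate 2, 2534 with a dye term, 769 with the scanner ratio, 732 with offset 16 and 605 with an intensity trend. Without the motif probes, a setting chosen after the values were seen, Grin3b was still the 1 gene called among 24. The median ratio stayed between -0.32 and -0.01 in all alternatives. Sign changed for Gabrg3 (0.01 with median centring, a dye term or the authors' values; -0.08 to 0.06 leaving out 1 replicate) and, leaving out 1 replicate, for Grik3 (-1.05 to 0.47), Gria4 (-0.37 to 0.06), Glrb (-0.32 to 0.17) and Grik2 (-0.11 to 0.03), none of them called. The cause of these changes was not tested. Fits that leave out 1 replicate also have fewer degrees of freedom. The test is paired by array, since each ratio sets the mutant against the wild type of the same array. A slide block was not run, with 1 slide. The 3 arrays and signals close to background limit all values.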

Other observations

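Genes of cell types outside the nervous system were the ones called among the marker lists. Of 9 measurable cardiac and mesenchyme markers 4 were called higher in the mutant with limma, the heart transcription factor genes Hand2 at 3.04 ± 0.33 and Hand1 at 1.82 ± 0.30, the smooth muscle actin gene Acta2 at 2.36 ± 0.14 and the cardiac troponin gene Tnnt2 at 3.16 ± 0.69 (n = 3 arrays), against 1.27% of all genes called higher, and the median of the list was 2.84. Of 10 visceral endoderm markers 2 were called higher, against the same 1.27%, Ctsh at 1.88 ± 0.18 and the transthyretin gene Ttr at 2.59 ± 0.69, with Apoc2 at 2.28 ± 0.70 not called and a list median of 2.30. The summed intensity of neither list overlapped between genotypes, at 14600 to 18400 in wild type and 88900 to 117000 in the mutant for the cardiac list and 111000 to 214000 and 469000 to 943000 for the endoderm list. Pluripotent cell markers differed between arrays: Pou5f1 read -2.77, -2.65 and 0.90, Utf1 -2.48, -2.28 and 0.87 and Esrrb -2.62, -2.24 and 0.98, and 0 of 8 were called. In these genes array 3 stood apart.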
